A study of Caenorhabditis elegans with 8 samples.

Results

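Among the 20191 genes counted in small RNA libraries of Caenorhabditis elegans, 28 autosomal genes held at least 100 reads in wild-type animals and at most 20 in zsp-1 mutant animals. The reads were summed over the 4 libraries of each genotype, so the genes were chosen by these measured sums. Their loss of reads in the mutant is therefore a description, without a test. In all, 34 genes passed both thresholds. Of these, 2 were X-linked, and 4 autosomal genes were left out because their names begin with the prefix of a gene family or neuropeptide class kept apart by the rule (spe-47, nlp-62, fbxb-56 and ins-17). The rule also excludes the mutated gene by name, which with 29 mutant reads did not pass the thresholds in any case.

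The animals were the wild-type strain N2 and the zsp-1 mutant strain YY1683. The series title writes zsp-1, the genotype label of YY1683 writes zap-1(-), and the count files name the gene pid-2. Each strain was fed HT115 bacteria at 20 °C, either with the empty vector L4440 or with bacteria expressing oma-1 double-stranded RNA (oma-1 RNAi), and each of the 4 groups has 2 libraries. The sample labels give gravid adults on day 1 and the extraction text gives young adults. Small RNAs of about 18 to 35 nt were cut from a gel of 20 µg of RNA from whole animals and cloned by a method that does not need a 5′ monophosphate.

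In the nematode, RNA-dependent RNA polymerases copy messenger RNAs into short antisense RNAs, the secondary siRNAs, which carry a 5′ triphosphate and are loaded onto worm-specific Argonaute proteins or onto CSR-1. WAGO-class Argonautes silence their targets, whereas CSR-1 is linked to genes that the germ line expresses. In germ cells much of this takes place in germ granules, among whose compartments are Mutator foci, where siRNAs are amplified, and Z granules, which are needed for inherited silencing. ZSP-1, also called PID-2, is a Z granule protein. The reads below measure small RNAs that match a gene, not the gene's own expression.

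The libraries held between 136908 and 340932 reads in genes. Replicates were not identical within sampling noise: a chi-square test of their counts gave 2.01 to 4.26 for each degree of freedom. At pid-2, the wild-type libraries held 94, 57, 116 and 92 reads and the mutant libraries 14, 2, 9 and 4. These counts, like all those below, are in the order L4440 replicates 1 and 2, then oma-1 RNAi replicates 1 and 2. The genotypes did not overlap there, in the direction of their labels. Summed reads of germ line marker genes made up 0.139% to 0.186% of wild-type libraries and 0.110% to 0.155% of mutant libraries, whereas those of muscle, intestine and hypodermis markers stayed at or below 0.00290% in every library. Sperm markers, 2 of 7 of which had no read at all, held 0.0208% to 0.0745% in wild type and 0.0323% to 0.0400% in mutant libraries, and oocyte markers, which include oma-1, 0.106% to 2.22% and 0.0877% to 2.06%. Neuron markers made up 0.0107% to 0.0185% of wild-type libraries, below the 0.0188% to 0.0285% of mutant libraries. No member was in these lists, and their part in the results was not tested. Whole animals were used, so fewer cells of a type and fewer small RNAs per cell cannot be told apart.

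Together the 28 genes took up 0.407%, 0.574%, 0.470% and 0.596% of the reads in the wild-type libraries. In the mutant libraries they took up 0.0393%, 0.0336%, 0.0324% and 0.0319%. The 95% Wilson intervals, which cover counting error only, ran from 0.378% to 0.626% across the wild-type libraries and from 0.0245% to 0.0465% across the mutant ones. The summed share was thus about equally low in all 4 mutant libraries, and varied more among the wild-type ones. In reads, the sum was 4710 in wild type and 309 in the mutant, a 14.7-fold difference in share.

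**Figure D1:**
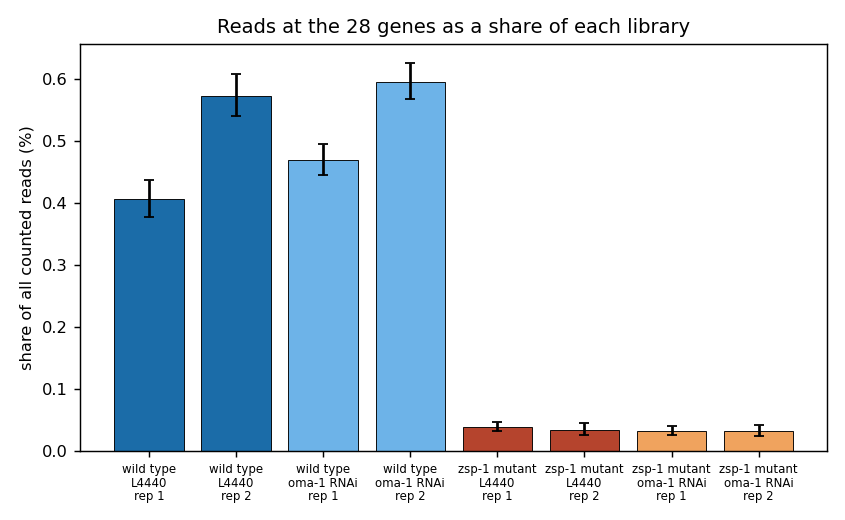
Share of each library's reads (percent, linear axis from 0) that fell on the 28 genes, with 95% Wilson intervals as error bars; each bar is 1 library. The 4 wild-type libraries lie between 0.407% and 0.596% and the 4 mutant libraries between 0.0319% and 0.0393%.

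The plot of shares by library also shows that the wild-type bars differ more between replicates than between foods. On L4440 the share was 0.407% in replicate 1 and 0.574% in replicate 2. On oma-1 RNAi it was 0.470% and 0.596%.

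Member by member, wild-type sums ran from 100 to 345 reads with a median of 152, and mutant sums from 0 to 20 with a median of 12.5. In the mutant 1 gene had no read at all, 4 had 1 to 3 reads, 6 had 4 to 9 and 17 had 10 to 20. All 28 had reads in every wild-type library, while 2, 5, 6 and 7 of them had none in the 4 mutant libraries. Each member's lowest wild-type level lay above its highest mutant level, on the scale of counts per 1e6 reads (CPM). The same held for 12.3% of the 4567 tested genes, and since the rule used this contrast nothing is read from it. The ratio of pooled read shares, wild type over mutant, had a median of 12.95 and was lowest at W04C9.5, at 5.27-fold. The 10 members with the most wild-type reads held 51.3% of all member reads in wild type.

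**Figure D2:**
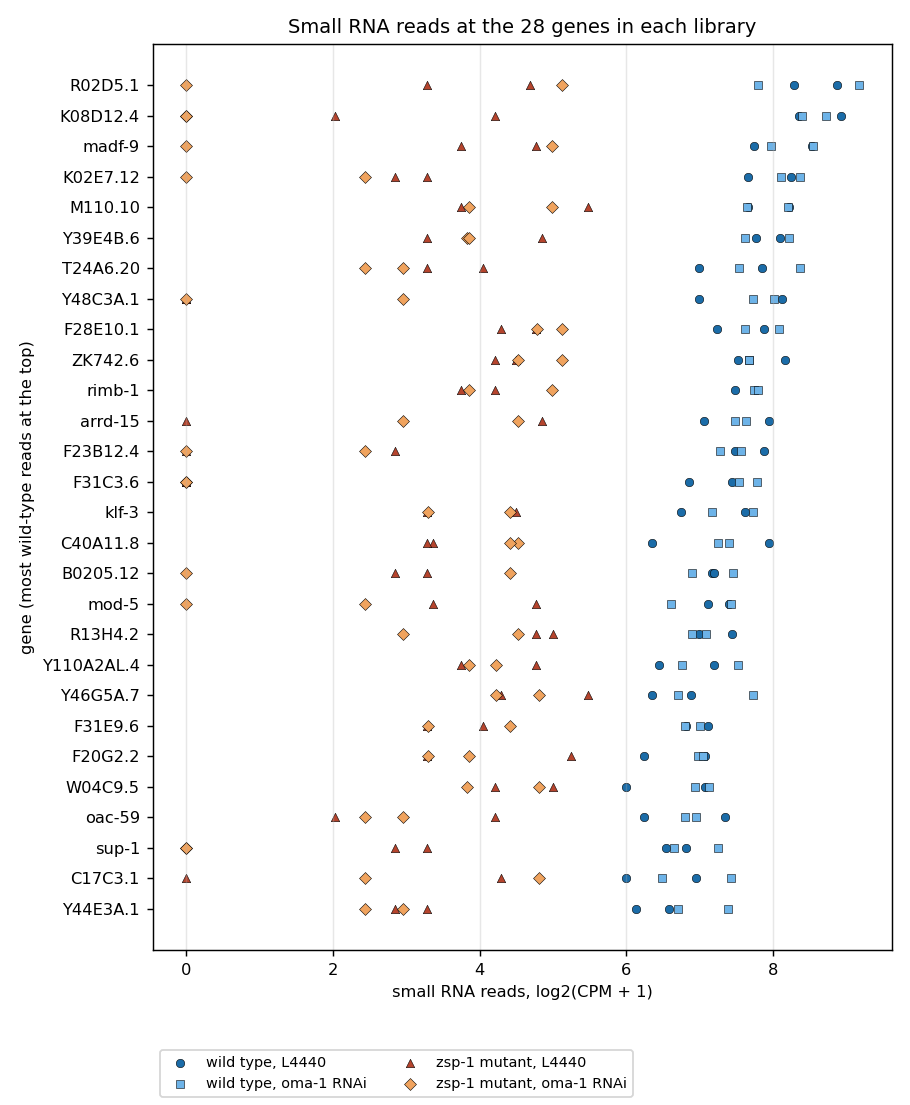
Level of each of the 28 genes in each library, as log2(CPM + 1), with 1 point per library, colours and symbols marking genotype and food; genes are ordered by wild-type reads. For every gene the 4 wild-type points lie above the 4 mutant points, and points at 0 are libraries without a read.

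In this plot of levels by gene, the wild-type sums span 3.45-fold, so that the distance between the genotypes varies among members mostly through the mutant points. The thresholds themselves cut through a continuous range. Just inside the mutant limit were F28E10.1 with 20 reads and R13H4.2 and W04C9.5 with 19 each. Just outside it were R06C1.4, with 557 wild-type and 21 mutant reads, Y38F1A.8 with 103 and 21, and ZC21.10 with 107 and 21. At the wild-type limit, Y44E3A.1, C17C3.1 and sup-1 were inside with 100, 101 and 102 reads. Outside were Y19D2B.2 and ZC190.10 with 99 each and K02B7.3 with 98. R06C1.4 thus had more wild-type reads than any member and missed the list by 1 mutant read.

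Of the 28 members, 7 have a gene symbol. The gene rimb-1 encodes a RIM-binding protein of the presynaptic active zone (chromosome III, 1789084 to 1806859, build WBcel235, in the coordinates of the files). It had 31, 39, 60 and 56 wild-type reads and 4, 2, 7 and 2 mutant reads, an 11.9-fold lower share in the mutant. The serotonin reuptake transporter gene mod-5 (chromosome I, 3035193 to 3047794) had 24, 30, 27 and 43 reads against 3, 3, 1 and 0, a 17.1-fold difference. At rimb-1 the wild-type libraries ran from 178 to 222 CPM and the highest mutant library was at 30.8. At mod-5 they ran from 96.1 to 170 CPM and the highest mutant library was at 26.2. The rule used this contrast, so nothing is read from the gap. The gene sup-1 (chromosome III, 11733346 to 11737627) encodes a small transmembrane protein found through suppression of mutations in the vesicular acetylcholine transporter gene unc-17. It had 16, 20, 28 and 38 wild-type reads and 2, 1, 0 and 0 mutant reads. Its ratio of shares was 32.8, with an exact 95% interval of 10.9 to 161.5 from counting alone.

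The gene klf-3 encodes a Krüppel-like zinc-finger factor linked to fat storage (chromosome II, 6618218 to 6622168). Its wild-type reads were 34, 19, 40 and 53 and its mutant reads 7, 1, 2 and 3, a 10.8-fold difference in share. The gene madf-9, which encodes a protein with a MADF domain, a type of DNA-binding domain, lies on chromosome IV (3637079 to 3640265). It had 37, 66, 70 and 94 wild-type reads and 4, 3, 7 and 0 mutant reads, an 18.4-fold difference. In both genes no library of one genotype reached the level of the other. The mutant lay below wild type without overlap at 12.3% of tested genes too, and the rule used this contrast, so nothing is read from it.

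The remaining members with a gene symbol were arrd-15, which encodes an arrestin-domain protein, and oac-59, a homologue of O-acyltransferases. At arrd-15 (chromosome III, 8930036 to 8936682) the counts were 23, 44, 50 and 50 in wild type and 9, 0, 5 and 1 in the mutant. At oac-59 (chromosome IV, 12293234 to 12301280) they were 13, 29, 31 and 31 against 1, 2, 1 and 1. In arrd-15 the mutant reads were uneven, with the deepest library, on L4440, holding most of them.

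The other 21 members carry only a sequence name in the files. That is 75% of the 28 genes. The share was 36.7% among the 1829 other autosomal genes with at least 100 wild-type reads and 50.7% among all 20191 genes. The rule had removed named gene families, however, and so favours sequence names. With the 4 genes left out by name put back, the members' share was 21 of 32, or 65.6%. No role is given here for these genes, except that Y48C3A.1 is annotated as a long intergenic noncoding RNA. The other 27 members are annotated as protein-coding.

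The deepest losses were among the sequence-named genes. F31C3.6 (chromosome I, 15053617 to 15059003) had 20, 31, 52 and 55 reads in wild type and none in any mutant library. Set against a floor of 3 reads over the 4 mutant libraries, its share was at least 50.7-fold higher in wild type. The noncoding gene Y48C3A.1 (chromosome II, 13260495 to 13261201) had 22, 50, 59 and 65 reads and 1 mutant read, in the oma-1 RNAi replicate 2 library. That ratio of shares was 189, with an exact 95% interval of 33.5 to 7496. At these 2 genes the depth of the mutant libraries, and not a measured level, sets how large a loss can be stated.

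K08D12.4, listed by RefSeq under the symbol pugs-4, was the member with the most reads after R02D5.1 (chromosome IV, 1707296 to 1708691). It had 57, 87, 94 and 106 wild-type reads and 1, 2, 0 and 0 mutant reads. The ratio was 110.5 (exact 95% interval 37.5 to 538.3), and all mutant reads were from the L4440 libraries. F23B12.4 (chromosome V, 14441057 to 14445346) had 41, 32, 53 and 39 reads against 2, 0, 1 and 0, a ratio of 53.0 (17.8 to 259.6). K02E7.12 (chromosome II, 1070640 to 1071490) had 35, 54, 77 and 83 against 2, 1, 1 and 0, a ratio of 60.0. In each of these genes the mutant libraries held at most 2 reads.

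R02D5.1 (chromosome V, 14508249 to 14509655) had the most wild-type reads of the 28. Its counts were 54, 84, 62 and 145 in wild type and 8, 1, 0 and 5 in the mutant, a 23.7-fold difference in share. The wild-type oma-1 RNAi replicates were far apart, at 221 and 574 CPM. Its nearest member was F23B12.4, 62903 bases away on chromosome V, and no other adjacent pair of members was closer than 290573 bases. The members were spread over all autosomes, with 5 on I, 8 on II, 4 on III, 4 on IV and 7 on V. Of the other well-covered autosomal genes, 20.6% lay on chromosome II and 14.5% on V, where 28.6% and 25% of the members lay; this was not tested.

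ZK742.6 (chromosome V, 7814615 to 7814886) was the shortest member, and had 32, 51, 57 and 51 wild-type reads and 7, 2, 5 and 5 mutant reads. M110.10 (chromosome II, 8214057 to 8214469), with 1 exon, had 35, 53, 56 and 74 against 4, 5, 7 and 2. The similarly short B0205.12 (chromosome I, 10730467 to 10730743) had 25, 26, 33 and 44 against 2, 1, 0 and 3. The ratios of shares were 9.69 for ZK742.6, 11.67 for M110.10 and 20.6 for B0205.12. The other members with less than 500 exon bases, Y48C3A.1 and K02E7.12, kept only 1 and 4 mutant reads, so the short genes did not share a common size of loss.

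At the other end of the range of lengths, F28E10.1 (chromosome IV, 4568841 to 4590297) has 22 exon blocks and was the longest member. It had 26, 42, 55 and 68 wild-type reads and 6, 3, 6 and 5 mutant reads, a 9.20-fold difference in share. Y39E4B.6 (chromosome III, 13070756 to 13074697) had 38, 49, 55 and 75 against 9, 1, 3 and 2, a 13.9-fold difference. C17C3.1 (chromosome II, 5570572 to 5574943) had 11, 22, 25 and 43 against 6, 0, 1 and 4, an 8.85-fold difference. Here too no mutant library reached the wild-type level, from which nothing is read, since the rule used this contrast.

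T24A6.20 (chromosome V, 3553134 to 3554568) had 22, 41, 52 and 83 wild-type reads and 5, 1, 1 and 1 mutant reads, a 23.9-fold difference in share. C40A11.8 (chromosome II, 2150552 to 2151290) had 14, 44, 47 and 38 against 3, 1, 5 and 3, an 11.5-fold difference. Y44E3A.1 (chromosome I, 3338367 to 3340219) had 2, 1, 1 and 1 reads in the mutant, a 19.3-fold difference from its 100 in wild type. All of these counts were spread over the 4 wild-type libraries rather than concentrated in 1.

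The smallest differences in share were at W04C9.5 (5.27-fold), Y46G5A.7 (5.93-fold), F20G2.2 (5.95-fold) and R13H4.2 (6.08-fold). W04C9.5 (chromosome I, 462657 to 467131) had 11, 24, 34 and 35 wild-type reads and 10, 2, 3 and 4 mutant reads. Y46G5A.7 (chromosome II, 12755170 to 12756218) had 14, 21, 29 and 53 against 6, 5, 4 and 4. Scaled to depth, the mutant levels of Y46G5A.7 were 18.6, 43.6, 17.6 and 27.0 CPM, highest in the shallowest library. F20G2.2 (chromosome V, 13755011 to 13756409) had 13, 24, 35 and 33 reads against 12, 1, 2 and 2, and R13H4.2 (chromosome V, 11836320 to 11838020) had 22, 31, 33 and 34 against 10, 3, 5 and 1. Replicate 1 on L4440, the deepest library, held the most mutant reads of all 4 genes, and in CPM it stood well above the rest at F20G2.2, at 37.1 against 8.72 to 13.5, but not at R13H4.2, where replicate 2 on L4440 reached 26.2 CPM beside its 30.9. The last members, Y110A2AL.4 on chromosome II and F31E9.6 on V, had 117 and 107 wild-type reads and 13 and 11 mutant reads.

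Exon lengths of the members ran from 220 to 4332 bases, with a median of 1085. The 1829 other autosomal genes with at least 100 wild-type reads had a median of 1969, and all 20191 genes one of 1103. Less than 500 exon bases were annotated for 5 of the 28 (17.9%), against 3.88% of those 1829 genes and 12.6% of all genes. Over 2000 bases were 7 members, or 25%, against 49.0% of the 1829 and 18.4% of all genes. The middle 50% of members lay between 715.5 and 1682 bases. The members' median was thus below that of the well-covered genes and close to that of all genes. The rule set a read count without regard to length, so length and read number were tied in this selection. The 50 autosomal genes with the opposite pattern, at most 20 wild-type and at least 100 mutant reads, had a median of 1738.5 bases and none under 500.

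**Figure D3:**
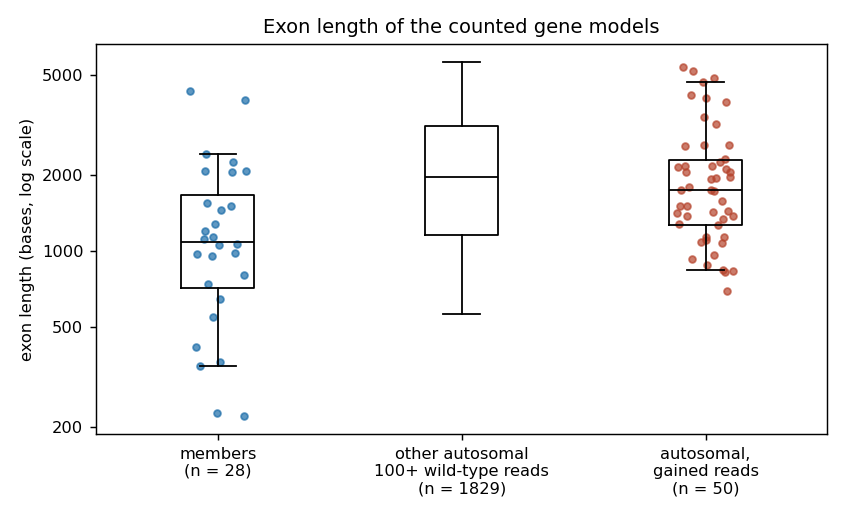
Exon length in bases (log axis) of the 28 genes, of the 1829 other autosomal genes with at least 100 wild-type reads and of the 50 autosomal genes that gained reads; boxes span the quartiles with the median as a line, whiskers reach the percentiles 5 and 95, and points are genes. The members' median of 1085 bases lies below the medians of 1969 and 1738.5 of the other sets.

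Per length, the order of the members differs from that of their reads. On the scale of reads per kilobase of exon in CPM (mean ± SD over the 4 wild-type libraries), ZK742.6 was highest at 992 ± 204, with 220 exon bases. K02E7.12 followed at 765 ± 153, K08D12.4 at 718.5 ± 138, B0205.12 at 639 ± 102, Y48C3A.1 at 627 ± 195 and M110.10 at 598 ± 132. The step from ZK742.6 to K02E7.12 was larger than either SD, and the later steps in this order were smaller than the SD of either gene. These 6 genes were also the 6 shortest of the 28. The lowest were C17C3.1 at 46.0 ± 19.2, F28E10.1 at 49.0 ± 11.9, oac-59 at 52.2 ± 16 and rimb-1 at 52.4 ± 5.12, which did not differ beyond their spread. Between the ends the range was 21.6-fold, against 3.45-fold in reads. The members' median level was 133 on this scale and that of the other well-covered autosomal genes 105, with 20 of the 28 above the latter. In reads the medians were 152 and 175, and in exon length 1085 and 1969 bases. The rule used these wild-type reads, and the members' exons were shorter, so nothing is read from the levels per length.

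Genes overlapping or beside the members were not themselves chosen by the rule, although it screened the reads of every gene. Their own reads are described here. Most of them held too few reads to show either a loss or its absence. On the opposite strand, 6 members (21.4%) overlap another gene, as do 22.5% of the other well-covered autosomal genes. ZK742.6 shares 42 exon bases with xpo-1, a nuclear export receptor gene, which held 287 wild-type and 208 mutant reads (log2 change −0.34 ± 0.22 SE, adjusted p = 0.347 by the quasi-likelihood test of edgeR). F23B12.4 shares 23 bases with dlat-1, a pyruvate dehydrogenase subunit gene, at 167 and 105 reads (adjusted p = 0.163 in edgeR). B0205.12 shares 32 bases with the proteasome gene rpn-10, at 86 and 61 reads (adjusted p = 0.446 in edgeR). None of these 3 partners passed the test, and the members facing them had 9.69-fold (ZK742.6), 53.0-fold (F23B12.4) and 20.6-fold (B0205.12) lower shares in the mutant. The other opposite-strand partners had too few reads to be tested, with 28 wild-type and 14 mutant reads at C42C1.8, 24 and 15 at psf-2, and 2 and 0 at nphp-4. All 6 had fewer raw reads in the mutant, whose libraries also held fewer reads in total (878793 against 912141). The share of all genes with fewer reads was not counted, so nothing is read from this.

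On the same strand, C17C3.1 shares 333 exon bases with C17C3.15. That neighbour had 93 wild-type reads, just under the rule's minimum of 100, and 12 mutant reads. It fell by 2.82 ± 0.45 (SE) on the log2 scale (adjusted p = 2.03e-05 in edgeR). The 4 tested genes that overlap a member, on either strand, had a median log2 change of −0.44, beside −0.08 over all tested genes. Reads of the shared bases cannot be assigned to either gene, so the values of this pair are uncertain. The strand setting of the counting is not given in the sources used here, so reads at antisense overlaps that share exon bases are uncertain too. R13H4.2 and nphp-4 overlap by gene span only, with 0 shared exon bases. Annotated noncoding genes lie within exons of 3 members, F23B12.4, F28E10.1 and W04C9.5, the last of them a piRNA locus. Such noncoding genes lie within exons of 127 of the 1829 other well-covered autosomal genes and of 1330 of all 20191 genes.

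The nearest genes on either side of the members that do not overlap them were 55 in number. They held few small RNA reads, with a median of 2 in wild type and 50 of them below 100. Only 10 had enough reads to be tested between the genotypes. Of these 1 fell, 1 rose and 8 did not pass, against a background over all 4567 tested genes of 11.8% that fell and 11.3% that rose. The gene edc-4, 12 bases from Y44E3A.1, held 218 wild-type and 205 mutant reads (log2 change 0.01 ± 0.23 SE). The proteasome subunit gene pbs-1, 113 bases from K08D12.4, held 163 and 135 (log2 change −0.19 ± 0.26 SE). Neither gene passed the test, and the members beside them kept 5 and 3 mutant reads.

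The neighbour that fell was zipt-1, a gene named for zinc transporters of the ZIP family, 1197 bases from F31C3.6. It had 57 wild-type reads and 20 mutant reads, a log2 change of −1.33 ± 0.43 SE (adjusted p = 0.0258 in edgeR). The call was not made by DESeq2 (adjusted p = 0.178) nor without any of 5 of the 8 libraries. The neighbour that rose was C40A11.7, 189 bases from C40A11.8, with 14 wild-type and 50 mutant reads (log2 change 1.91 ± 0.49 SE, adjusted p = 0.00396 in edgeR). It lost the call without replicate 2 of the mutant on L4440 (adjusted p = 0.0602 in edgeR). The 10 tested flanking genes had a median log2 change of 0.03, beside −0.08 over all tested genes.

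**Figure D4:**
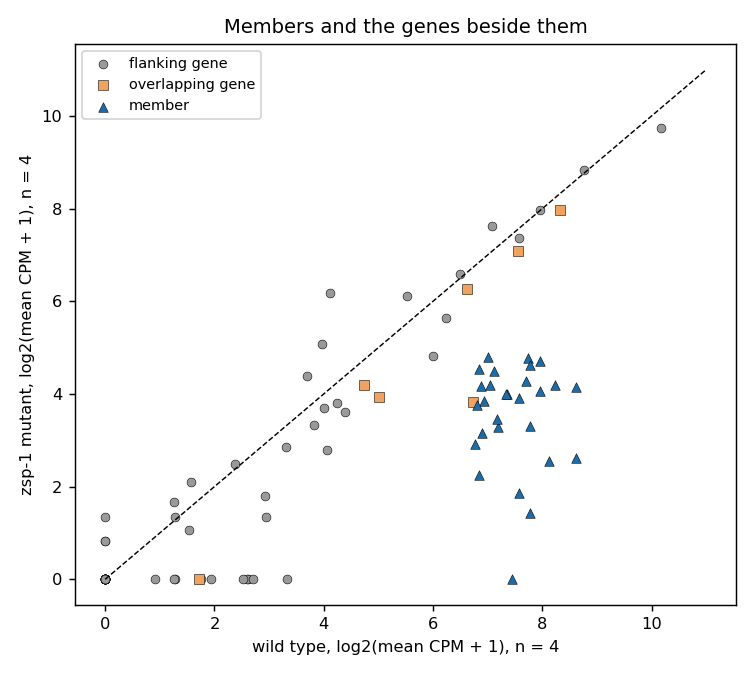
Mean level over the 4 libraries of wild type (horizontal) and of the zsp-1 mutant (vertical), as log2(mean CPM + 1), for the 28 genes, the 7 genes that overlap them and the 55 that flank them; the dashed line marks equal levels. The members lie far below the line, while most flanking genes lie near it or near the origin.

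In the plot of members and their neighbours, most flanking genes sit near the origin because they held hardly any small RNA reads in either genotype. All 28 members passed the filter on low counts, which the wild-type libraries alone would secure. In the model across all genes their log2 change, mutant against wild type, had a median of −3.63 and ranged from −8.18 to −2.30. All 28 were called lower, as were 11.8% of all tested genes. They were also all lower on L4440 alone, where 7.66% of tested genes fell and 8.74% rose, and on oma-1 RNAi alone, where 7.38% fell and 8.36% rose, and nothing is read from these counts. DESeq2 called 25 of the 28 on L4440 alone, beside 482 of the 4567 tested genes in either direction. The median was −3.49 on L4440 and −3.85 on oma-1 RNAi, whereas that of all tested genes over both foods was −0.08. The value of −8.18 belongs to F31C3.6, whose mutant libraries are all at 0, and depends on the model's prior count.

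The rule summed reads over both foods and did not compare them, so the response of the members' small RNAs to oma-1 RNAi was tested. The same wild-type reads had chosen the genes, however, and the deeper oma-1 RNAi libraries weighed more in the sums. At 50 and 10 reads, the oma-1 RNAi libraries alone recovered 27 of the 28 members and the L4440 libraries alone 18. The test is thus not independent of the choice. The question was whether exposure to a double-stranded RNA against another gene was accompanied by changes at these targets. In wild type 0 of the 28 passed the test in edgeR at an adjusted p below 0.05, against a background of 0.0438% of the 4567 genes, namely oma-1 itself and moe-3. At an unadjusted p below 0.05 there were also 0 of 28, beside 135 of all tested genes, or 2.96%. DESeq2 likewise called 0 of the 28. An edgeR fit that also blocked by replicate gave 2 of 28 at an unadjusted p below 0.05. The number among all tested genes was not counted in that fit, so nothing is read from those 2. At an adjusted p below 0.05 it called more genes than the main fit, 5 rising and 19 falling, with 0 members. Leaving out a wild-type library moved the members' median log2 response in either direction. It was −0.09 without replicate 1 on L4440 and 0.56 without replicate 2. It was 0.34 without replicate 1 on oma-1 RNAi and −0.08 without replicate 2.

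The members' log2 responses in wild type ran from −0.26 to 0.71 with a median of 0.12, beside 0.01 over all tested genes, and 18 of the 28 were positive. The largest was that of Y44E3A.1, with 12 and 17 reads on L4440 and 29 and 42 on oma-1 RNAi. Its log2 response was 0.71 ± 0.40 SE (adjusted p = 0.999 in edgeR). Y44E3A.1 lay at the wild-type limit of 100 reads, and 71% of its wild-type reads came from the oma-1 RNAi libraries. The most negative was that of F23B12.4, with 41 and 32 reads on L4440 and 53 and 39 in the deeper oma-1 RNAi libraries (log2 response −0.26 ± 0.32 SE, unadjusted p = 0.422 in edgeR). Standard errors ran from 0.31 to 0.47, so that modest responses of an individual gene were not detectable at this depth. Higher on oma-1 RNAi without overlap in CPM were 2 members, F31C3.6 and Y44E3A.1, named after their values were seen, against 13% of tested genes, and lower were 0, against 12.5%.

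**Figure D5:**
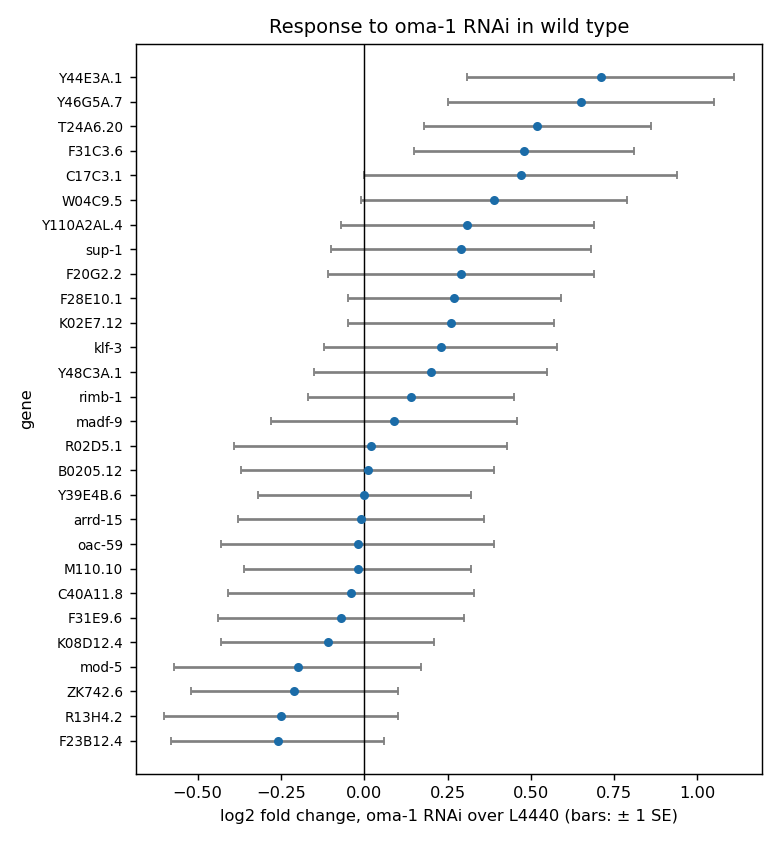
Log2 change in small RNA reads on oma-1 RNAi relative to L4440 in wild type for each of the 28 genes; bars are 1 standard error (SE) of the model to either side. The values lie between −0.26 and 0.71, and none of the 28 passed the test.

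The plot of food responses shows the wild-type points around 0 with errors of similar size for every gene. Replicates of wild type also differed. Replicate 1 was below replicate 2 in 25 of 28 members (89.3%) on L4440 and in 25 of 28 on oma-1 RNAi, while among all tested genes this was so for 50% and 50.2%. The median log2 difference of replicate 2 from replicate 1 was 0.57 on L4440 and 0.39 on oma-1 RNAi over the members, larger than their median food response. In both wild-type groups most members were thus higher in the library labelled replicate 2. In the mutant, replicate 1 was the lower for 13 members on L4440 and for 15 on oma-1 RNAi, with few reads behind either count.

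Since the members were chosen for few mutant reads, tests of their food response in the mutant and of the difference between the genotypes' responses had little power. EdgeR called 0 of the 28 in either, with median SEs of 0.84 and 0.95 on the log2 scale. At an unadjusted p below 0.05 there were 0 of 28 for the response in the mutant and 1 of 28 for the difference. An absent response cannot be told from an undetected one. In the mutant libraries 2, 5, 6 and 7 of the 28 had no read. Over all tested genes, edgeR called 0.0438% for the food response in the mutant and 0% for the difference, where 113 of the 4567 genes had an unadjusted p below 0.05 and DESeq2 called 0.

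Of a list of 35 names of genes that make or hold secondary siRNAs, 28 were found in the files by name, none of them a member. The names znfx-1, pid-4, pid-5, lotr-1, wago-3, rde-3 and mut-8 were not found and may stand under other names there. Of the 25 tested, 2 fell between wild type and mutant, 1 rose and 22 did not pass, beside 11.8% of all tested genes that fell and 11.3% that rose. The list's median log2 change was −0.10 and that of all tested genes −0.08. Those that fell were pid-2 itself, by 3.53 ± 0.31 (SE) on the log2 scale, and rrf-1, an RNA-dependent RNA polymerase gene, by 0.85 ± 0.23, a call lost without replicate 2 of the mutant on oma-1 RNAi (adjusted p = 0.0596 in edgeR). The gene rde-11, whose product acts in the amplification of siRNAs during exogenous RNAi, rose by 1.51 ± 0.24 (SE) on the log2 scale, from 222 to 563 reads (adjusted p = 1.53e-05 in edgeR). The Argonaute genes wago-4 and csr-1 had 1152 and 1010 wild-type reads and 1185 and 815 mutant reads, and did not pass the test.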

How the data were processed

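The authors deposited 1 table per library, with unnormalised counts for every gene and the exon length of its model, per the file headers. The submitters' processing notes name featureCounts 1.6.0, TopHat2 2.1.1, cutadapt 1.14 and build WBcel235. How strand and reads with several matches were handled is not given in the sources used here, so near-identical genes may share reads. The members were found by the read thresholds over raw counts, and members and lists were chosen with earlier results of these data known.

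Counts were fitted in R 4.3.3 with edgeR 4.0.16 (filterByExpr, minimum count 10, 4567 genes; TMM; quasi-likelihood model of 4 group means over all 8 libraries, 4 residual degrees of freedom). P-values were adjusted by Benjamini-Hochberg over all tested genes and called below 0.05. Standard errors are the size of the log2 fold change divided by the square root of F. DESeq2 1.42.0 was an alternative, as were other scalings, filters, a replicate block, leaving out each library and other read thresholds. Scripts were tested on simulated data. Levels are CPM on TMM-scaled totals. Intervals of shares (Wilson) and ratios (exact) are 95% and cover counting error only. Gene models were matched by name to Ensembl release 115, which gave a match for all 28. Both ends of the model were the same for 5 of them, so annotated overlaps and exon lengths are approximate. The rule for named members took the 10 with the most wild-type reads, those with 0 mutant reads, those with a gene symbol and the 3 at each side of a threshold. Other members, and the neighbours, were named after their values were seen. Paralogs among the members were not analysed here. The labels do not tell whether replicates are separate cultures, so the spread behind the p-values may be technical.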

Additional observations from a re-analysis of the deposited data

How the results depend on the processing

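No member was called for the food response in wild type under any of the 13 alternatives, and all 28 were called lower over both foods under those of the genotype fit. The rule had used the genotype contrast, so nothing is read from those 28 calls. In the main fit 11.8% of all tested genes were called lower. The median member response to food in wild type ran from −0.09 to 0.56 when libraries were left out, the highest without replicate 2 of wild type on L4440. The membership depends on the thresholds, the scaling and the libraries. A wild-type minimum of 200 left 6 genes and one of 50 gave 117; a mutant maximum of 10 left 11 and one of 40 gave 75. The oma-1 RNAi libraries alone, at 50 and 10 reads, gave 53, of which 27 were members, and the L4440 libraries alone gave 28, of which 18 were. Reads scaled to the mean library total gave 24 genes with 21 members, and TMM-scaled reads 20 with 18. Leaving out libraries gave 23 to 39. Over all genes, the wild-type food response called 2 that rose and 0 that fell. It called 5 and 21 without the filter on low counts, and 2 to 17 and 0 to 58 with a library left out, the most without replicate 2 of wild type on L4440. In the mutant, leaving out a library gave 2 rising and 0 to 1 falling. The difference of responses called 1 rising gene without the filter, and 0 to 4 rising and 0 to 2 falling with a library left out. DESeq2 called 357 genes that fell between the genotypes where edgeR called 540. Replicate numbers shared between groups showed correlations of deviations of 0.171 to 0.347, but with 2 numbers the labels share only a number. With the replicate block, the food response called 5 rising and 19 falling genes in wild type and 5 and 7 in the mutant, and the difference 2 falling. A fit on the mutant libraries alone kept no member on its filter and gave no value.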
